A study of Mus musculus with 12 samples.

Results

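The hypoxia response genes are a set of 10 targets of the hypoxia-inducible factors (HIFs) that were taken by name from the 23420 genes in the count tables, and all 10 were found in both tables. They encode 2 secreted factors (Vegfa and Adm), 2 glucose transporters (Slc2a1 and Slc2a3), 3 enzymes of glucose use (Pdk1, Ldha and Pgk1), a mitochondrial protein (Bnip3), an ankyrin repeat protein (Ankrd37) and an oxygen sensor (Egln3). Whole embryos at E12.5 (embryonic day 12.5) came from 2 lines, each bred by intercrossing heterozygotes, and every embryo gave 1 library of polyadenylated RNA. In the Carm1 line, 3 Carm1 null embryos homozygous for Carm1tm1Mtb (Carm1 KO/KO), which lack exons 2 and 3 of the arginine methyltransferase gene Carm1, were compared with 3 wild-type embryos on the C57BL/6 strain. In the Pax3 line, 3 Splotch embryos homozygous for the null allele Pax3Sp2H (Pax3 Sp2H/Sp2H) were compared with 3 wild-type embryos of the same closed colony on a mixed background. Both mutants have heart defects, which in Carm1 mutants are variable and not fully penetrant. No source used here says whether the sequenced embryos had such a defect. The question asked of these genes was whether the mutant embryos carry a transcript pattern of poor oxygen supply.

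HIFs are transcription factors made of an oxygen-labile alpha subunit and a stable beta subunit. In oxygen, prolyl hydroxylases mark the alpha subunit, and the VHL ubiquitin ligase then removes it. When oxygen is low the alpha subunit persists, binds DNA at short sites with a CGTG core, and raises genes for blood vessel growth, glucose uptake, glycolysis and mitochondrial turnover, together with genes such as Egln3 that feed back on the pathway. Parts of the midgestation embryo are low in oxygen during normal development, so these genes are also transcribed in wild-type embryos. In RNA from whole embryos, fewer cells that express a gene cannot be told apart from less RNA per cell.

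Library totals lay between 17183344 and 23518692 counts. Carm1 itself stood at 69.3 to 76.2 counts scaled to library size (CPM) in Carm1 KO/KO embryos and at 137 to 151 CPM in their wild-type controls. Pax3 stood at 18.1 to 22.4 CPM in Pax3 Sp2H/Sp2H embryos and at 25.0 to 30.9 CPM in their controls, and these counts per gene do not separate the mutant transcript from the normal one. Y-linked genes were read in 1 of 6 libraries of the Carm1 line (a wild type) and in 3 of 6 of the Pax3 line (1 mutant and 2 wild types), and a term for such libraries changed no call among the 10 genes. The ribosomal RNA precursor Rn45s took 0.374 to 0.381% of the counts in Pax3 Sp2H/Sp2H libraries against 0.764 to 1.70% in their controls, and 3.30 to 6.40% in the Carm1 line. The 10 genes kept the same calls with Rn45s left out, an alternative chosen after the data had been seen. In the Pax3 line the Rn45s share did not overlap between mutants and controls. A library difference that goes with it cannot be told apart from genotype, and leaving out 1 gene does not test it.

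Levels can be compared between genes only per length, so CPM were divided by the kilobases of annotated exon. Exons were merged over all annotated transcripts of a gene, so levels on this scale depend on the annotation. On this scale Ldha had the highest level over the 12 libraries (mean 144 CPM per kb) and Pgk1 followed (130 CPM per kb). Slc2a1 (36.0), Vegfa (27.9) and Bnip3 (16.2) held the middle. Slc2a3 (9.30), Pdk1 (7.95), Egln3 (4.44), Ankrd37 (2.96) and Adm (0.899) came last. The order was the same in 3 of the 4 groups. In Pax3 wild-type embryos Pgk1 had the higher mean of the top pair, but there, as in Pax3 Sp2H/Sp2H embryos, the libraries of Ldha and Pgk1 overlapped. Neighbours also overlapped for Slc2a3 and Pdk1 in every group except Carm1 KO/KO, and for Slc2a1 and Vegfa in Pax3 Sp2H/Sp2H. Adm was the least precise of the set, with 14 to 47 raw counts per library, and Ankrd37 had 44 to 133, whereas Ldha had 7379 to 12907.

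The stretches of DNA before the start sites of 6 genes are shown because the results below turn on these genes and because the letters bound by HIFs can be looked for in them. The sequences are from RefSeq on GRCm38.p6, and each runs from 250 to 26 bases before a start site in the direction of the gene. Capitals mark ACGTG or GCGTG on either strand, where the reverse strand reads CACGT or CACGC and the palindrome CACGTG counts on both. Ldha lies at chr7:46845554-46845778 on the plus strand, Pgk1 at chrX:106186850-106187074 on the plus strand and Slc2a1 at chr4:119108495-119108719 on the plus strand. Ankrd37 lies at chr8:45999876-46000100, Egln3 at chr12:54203900-54204124 and Vegfa at chr17:46032403-46032627, all on the minus strand.
Ldha: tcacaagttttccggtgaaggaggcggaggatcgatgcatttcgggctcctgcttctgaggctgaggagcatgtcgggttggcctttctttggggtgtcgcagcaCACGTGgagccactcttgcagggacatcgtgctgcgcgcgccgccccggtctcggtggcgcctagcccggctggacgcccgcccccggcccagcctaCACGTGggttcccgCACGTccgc
Pgk1: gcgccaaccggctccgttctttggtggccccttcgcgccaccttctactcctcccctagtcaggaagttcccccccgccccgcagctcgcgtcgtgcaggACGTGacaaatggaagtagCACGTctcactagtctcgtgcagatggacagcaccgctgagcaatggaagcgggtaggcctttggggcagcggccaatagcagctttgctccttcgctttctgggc
Slc2a1: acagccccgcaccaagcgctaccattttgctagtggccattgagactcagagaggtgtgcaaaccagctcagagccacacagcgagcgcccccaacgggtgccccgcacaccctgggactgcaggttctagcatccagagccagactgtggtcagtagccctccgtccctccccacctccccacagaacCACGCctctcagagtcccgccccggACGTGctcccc
Ankrd37: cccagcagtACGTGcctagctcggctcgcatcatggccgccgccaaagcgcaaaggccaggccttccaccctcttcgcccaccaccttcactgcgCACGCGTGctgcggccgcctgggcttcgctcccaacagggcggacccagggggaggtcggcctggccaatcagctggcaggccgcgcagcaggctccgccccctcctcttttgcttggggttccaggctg
Egln3: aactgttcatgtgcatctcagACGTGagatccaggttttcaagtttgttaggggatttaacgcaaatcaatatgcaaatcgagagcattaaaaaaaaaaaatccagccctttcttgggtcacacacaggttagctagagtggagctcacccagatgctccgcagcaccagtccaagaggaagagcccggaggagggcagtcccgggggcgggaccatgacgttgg
Vegfa: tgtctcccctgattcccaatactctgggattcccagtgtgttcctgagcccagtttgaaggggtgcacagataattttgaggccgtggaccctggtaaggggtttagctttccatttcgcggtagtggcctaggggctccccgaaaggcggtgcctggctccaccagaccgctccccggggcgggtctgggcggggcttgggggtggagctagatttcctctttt

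Ldha showed 5 matches in this stretch, 4 of them from 2 copies of the palindrome. Ankrd37 showed 3, Pgk1 and Slc2a1 showed 2 each, and Egln3 showed 1. Vegfa showed none, which says only that these letters are not in this window. In the full windows of 300 bases, from 250 before to 50 after a start, 9 of the 10 genes had an entry, with 12 start sites between them. Either motif was present in 10 of these 12 windows and in 43.8% of the 32851 windows of all genes. A match is a description of the letters and not evidence that a factor binds there. Of the genes not printed, Bnip3 had 5 matches in its window and Adm 2, and another start site of Vegfa inside the gene had 2.

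In the Carm1 line 5 of the 10 genes passed the test at an FDR adjusted P below 0.05, with 4 of them higher in the mutants and 1 lower. Slc2a3, Ldha, Pgk1 and Egln3 rose, by 10.8 to 24.8%, and Slc2a1 fell by 17.3%. Over all 15811 genes tested 13.3% passed, 5.49% higher and 7.83% lower. The median log2 fold change (log2 FC) of the 10 genes was 0.13, against 0.00136 over all genes. Mutants and controls did not overlap in 5 of the 10 genes, 4 higher and 1 lower, which held for 30.0% of all genes tested, 14.2% higher and 15.7% lower. All adjusted P values come from the quasi-likelihood test of edgeR, corrected over every gene tested by the Benjamini-Hochberg method. Log2 FC is the fold change of mutant over wild type on the log2 scale, given with its SE (the standard error of the fit).

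Pax3 Sp2H/Sp2H embryos differed from their controls in 4 of the 10 genes, all of them higher. These were Vegfa, Slc2a1, Ldha and Ankrd37. Over the 15724 genes tested in that line 24.5% passed, 14.0% higher and 10.5% lower. The median log2 FC of the 10 genes was 0.17, against -0.0026 over all genes. Groups did not overlap in 3 of the 10 genes (Vegfa, Ldha and Ankrd37), all of them higher, against 39.6% of all genes tested, 20.7% higher and 18.9% lower, so the share without overlap was not above the background in this line. The set that passed was not the same in the lines: Ldha was higher in both, Slc2a1 passed in opposite directions, 3 genes passed in the Carm1 line alone, 2 in the Pax3 line alone, and Adm, Pdk1 and Bnip3 in neither.

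**Figure D1:**
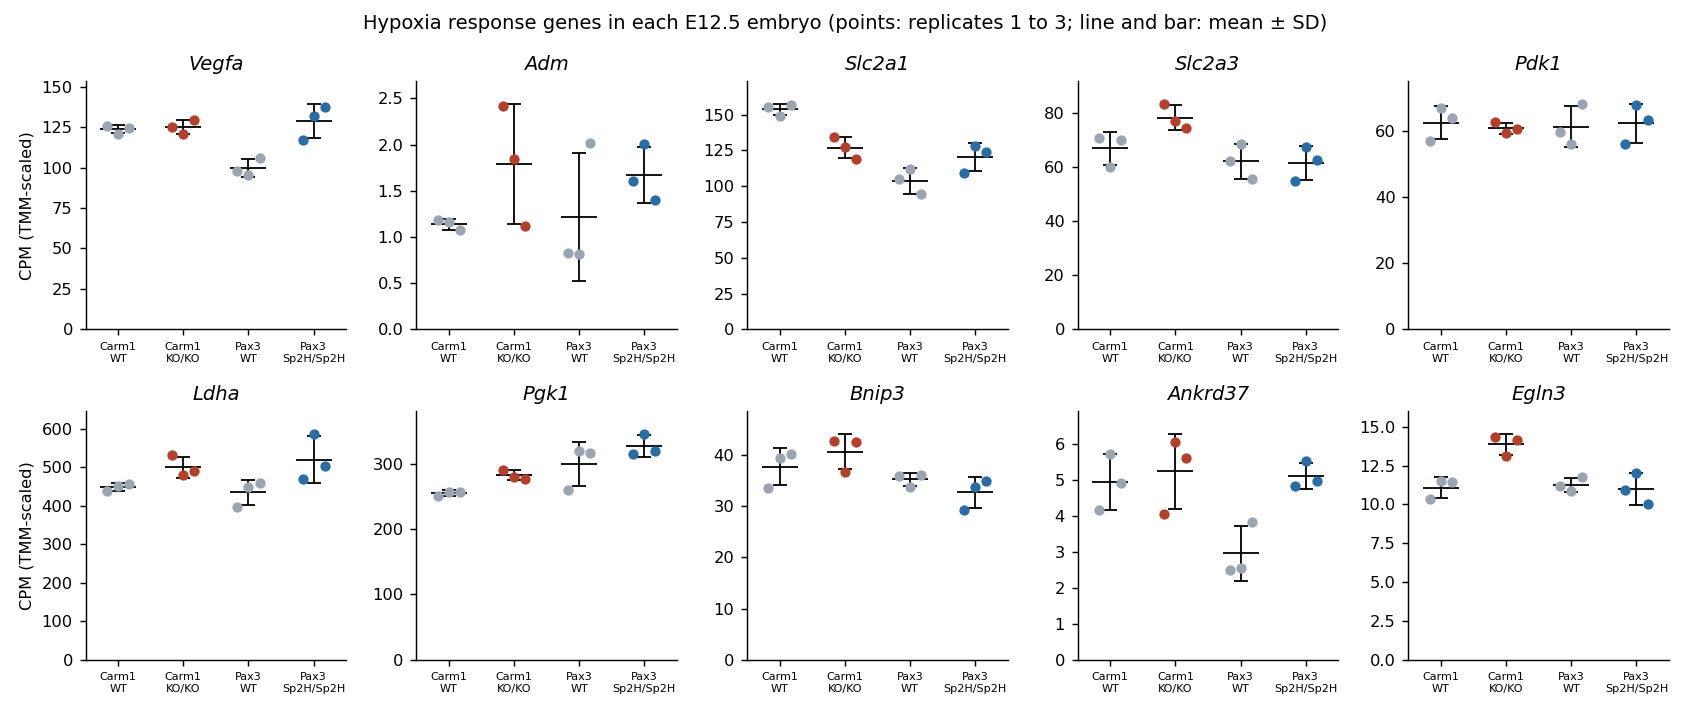
CPM scaled by TMM for the 10 genes (vertical axes, each starting at 0) in the 4 groups of 3 embryos, with points for replicates 1 to 3 from left to right and a line and bar for the mean ± SD. Vegfa and Ankrd37 stand above their controls in the Pax3 line alone, and Slc2a1 lies below its controls in the Carm1 line and mostly above them in the Pax3 line.

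Vegfa, on chromosome 17 from 46016993 to 46032369, encodes the growth factor that drives the formation of blood vessels. In the Carm1 line it stood at 125, 121 and 129 CPM in the mutant embryos and at 126, 121 and 125 CPM in the wild types. The groups overlapped, with mutant replicate 3 just above the highest control, and the log2 FC was 0.016 (95% interval -0.077 to 0.11, edgeR adjusted P = 0.87), which spans changes from -5.21% to 7.83%. Its values in the Pax3 line were 117, 132 and 138 CPM in the mutants and 97.7, 95.6 and 106 CPM in the wild types. Every Pax3 Sp2H/Sp2H embryo lay above every control. The log2 FC of 0.37 (SE 0.062, edgeR adjusted P = 7.4e-05) is a level 29.2% higher. It passed under all 16 alternatives in processing, between 0.32 and 0.43.

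Adm, on chromosome 7 from 110627661 to 110629820, encodes adrenomedullin, a secreted peptide that relaxes vessels and is needed for lymphatic and cardiac development. Carm1 KO/KO embryos had 2.41, 1.85 and 1.12 CPM and wild types 1.19, 1.16 and 1.07 CPM. Replicates 1 and 2 of the mutants lay above the controls and replicate 3 among them, and the estimate of 0.66 (SE 0.31) did not pass (edgeR adjusted P = 0.16). The Pax3 mutants had 1.61, 2.003 and 1.40 CPM and the wild types 0.83, 0.81 and 2.02 CPM. Wild-type replicate 3 was the highest of the 6, and the estimate of 0.40 (SE 0.32) did not pass (edgeR adjusted P = 0.38). Without that embryo the log2 FC was 1.02 (edgeR adjusted P = 0.034). No statement on Adm holds at this depth in either line.

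Slc2a1, on chromosome 4 from 119108711 to 119137983, encodes GLUT1, the glucose transporter of the blood-brain barrier, of fetal red cells and of most other embryonic cells. It stood at 134, 127 and 119 CPM in Carm1 KO/KO embryos and at 155, 149 and 156 CPM in wild types. All 3 mutants lay below all 3 controls. The log2 FC was -0.27 (SE 0.047, edgeR adjusted P = 0.000108), and it passed under all 16 alternatives. In Pax3 Sp2H/Sp2H embryos Slc2a1 had 109, 128 and 124 CPM and in their controls 105, 112 and 94.2 CPM. Mutant replicate 1 lay within the controls. The gene rose by 0.22 on the log2 scale (SE 0.066, edgeR adjusted P = 0.018), but it passed in only 11 of 16 alternatives and did not pass without mutant replicate 2 or 3 or without wild-type replicate 1 or 3.

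Slc2a3, on chromosome 6 from 122727809 to 122801640, encodes GLUT3, a transporter with high affinity for glucose that is typical of neurons. Its mutant embryos in the Carm1 line had 83.6, 77.1 and 74.5 CPM, and the wild types had 71.0, 60.0 and 70.1 CPM. The groups did not overlap, and the log2 FC was 0.23 (SE 0.060, edgeR adjusted P = 0.0085). The 2 transporters therefore moved in opposite directions in the same Carm1 KO/KO embryos. Slc2a3 in the Pax3 line stood at 55.1, 67.6 and 62.7 CPM in mutants and at 62.6, 68.6 and 55.7 CPM in wild types, which overlapped. The estimate was -0.0090 (95% interval -0.17 to 0.15, edgeR adjusted P = 0.95).

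Ldha, on chromosome 7 from 46841475 to 46855627, encodes the lactate dehydrogenase subunit that turns pyruvate to lactate when oxygen is short. Carm1 KO/KO embryos had 532, 481 and 490 CPM and wild types 438, 453 and 456 CPM. The Pax3 mutants had 470, 588 and 503 CPM and the wild types 398, 449 and 460 CPM. In each line every mutant lay above every control, although in both the margin between the closest pair was small. The rise was 0.16 on the log2 scale in the Carm1 line (SE 0.046, edgeR adjusted P = 0.018), a level 11.6% higher. The rise in the Pax3 line was 0.26 (SE 0.076, edgeR adjusted P = 0.015), a level 19.5% higher. Ldha is the only gene of the 10 that passed as higher in both lines. Vegfa, Adm, Pgk1 and Ankrd37 also had positive estimates in both lines, but none of them passed in both.

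Pgk1, on chromosome X from 106187100 to 106203699, encodes phosphoglycerate kinase, an ATP-yielding step of glycolysis. In Carm1 KO/KO embryos it had 292, 280 and 277 CPM against 250, 258 and 258 CPM in wild types. These groups did not overlap, and the gene rose by 0.15 on the log2 scale (SE 0.041, edgeR adjusted P = 0.013). Pax3 Sp2H/Sp2H embryos had 316, 346 and 319 CPM and their controls 261, 321 and 318 CPM. Wild-type replicate 1 was the low value, the other controls overlapped the mutants, and the estimate of 0.13 did not pass (SE 0.069, edgeR adjusted P = 0.18). Both Ldha and Pgk1 have processed pseudogenes elsewhere in the genome, so their counts are uncertain to the extent that reads were shared with these copies.

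Pdk1, on chromosome 2 from 71873224 to 71903858, encodes the kinase that shuts pyruvate dehydrogenase and so keeps pyruvate from the mitochondrion. It stood at 62.7, 59.3 and 60.7 CPM in Carm1 KO/KO embryos and at 57.1, 66.9 and 63.9 CPM in wild types. Its values in the Pax3 line were 56.0, 67.9 and 63.3 CPM in mutants and 59.7, 56.2 and 68.2 CPM in wild types. Groups overlapped in both lines. The estimates were -0.045 (95% interval -0.16 to 0.071) in the Carm1 line and 0.020 (-0.13 to 0.17) in the Pax3 line.

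Bnip3, on chromosome 7 from 138890836 to 138909519, encodes a protein of the outer mitochondrial membrane that marks mitochondria for removal. The Carm1 KO/KO values were 42.8, 36.7 and 42.7 CPM, and the wild-type values were 33.6, 39.4 and 40.3 CPM. Pax3 Sp2H/Sp2H embryos had 29.4, 33.9 and 35.04 CPM and their controls 36.0, 33.9 and 36.1 CPM. The groups overlapped in both lines. The estimates of 0.10 and -0.11 had opposite signs and did not pass (edgeR adjusted P = 0.38 and 0.35).

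Ankrd37, on chromosome 8 from 45996902 to 46005707, encodes a small ankyrin repeat protein known mainly as a sensitive reporter of HIF activity. Its Carm1 line values were 4.06, 6.05 and 5.60 CPM in mutants and 4.15, 5.72 and 4.92 CPM in wild types, and the estimate was 0.071 (95% interval -0.28 to 0.42). Pax3 Sp2H/Sp2H embryos had 4.83, 5.51 and 4.96 CPM, and their controls had 2.49, 2.55 and 3.82 CPM. No Pax3 Sp2H/Sp2H embryo overlapped a control, even though wild-type replicate 3 lay nearer to the mutants than to the other controls. The gene rose by 0.77 on the log2 scale (SE 0.18, edgeR adjusted P = 0.0026), a level 70.3% higher and the largest change of the 10 genes that passed in either line. It passed in all 16 alternatives, with values from 0.62 to 1.02. Exons of Ankrd37 overlap exons of Lrp2bp on the other strand, and the strand setting of the counting is not given in the sources used here, but Lrp2bp had no more than 18 counts in a library and did not pass in the Pax3 line (-0.43, edgeR adjusted P = 0.53).

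Egln3, on chromosome 12 from 54178981 to 54203860, encodes PHD3, a prolyl hydroxylase that is induced by HIFs and acts back on them. Carm1 KO/KO embryos had 14.4, 13.1 and 14.1 CPM and wild types 10.3, 11.5 and 11.5 CPM. All mutants lay above all controls, and the gene rose by 0.32 on the log2 scale (SE 0.10, edgeR adjusted P = 0.033). This was the largest change of the 5 genes that passed in the Carm1 line and also the least firm, with 10 of 16 alternatives past the threshold. Values in the Pax3 line were 10.95, 12.02 and 10.01 CPM in mutants and 11.2, 10.9 and 11.8 CPM in wild types, which overlapped. The estimate there was -0.040 (95% interval -0.26 to 0.18).

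**Figure D2:**
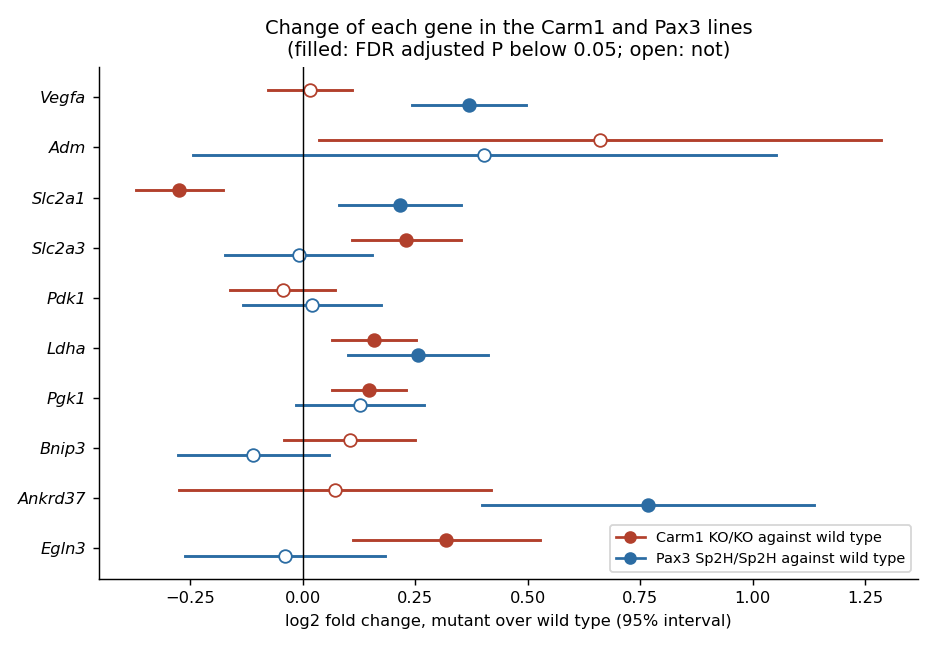
Log2 FC, mutant over wild type (horizontal axis), with its 95% interval for each of the 10 genes in the Carm1 line (red) and the Pax3 line (blue), where filled points have an FDR adjusted P below 0.05. Slc2a1 has filled points on opposite sides of 0 (-0.27 and 0.22), Vegfa lies at 0.016 in one line and 0.37 in the other, and Adm has the widest intervals.

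Whether a gene changed differently in the 2 lines was tested as an interaction over all 12 libraries, in which 19.1% of 16292 genes passed, 8.65% higher and 10.5% lower in the Carm1 line. Of the 10 genes, 2 passed, Slc2a1 and Vegfa, a share close to that over all genes. The log2 change of Slc2a1 was lower in the Carm1 line than in the Pax3 line by a difference of -0.48 (SE 0.085, edgeR adjusted P = 0.000173), and that of Vegfa by -0.34 (SE 0.078, edgeR adjusted P = 0.0019). Both passed in all 21 alternatives. Ankrd37 (-0.69, 95% interval -1.20 to -0.17) and Egln3 (0.37, 0.080 to 0.66) missed the threshold narrowly (edgeR adjusted P = 0.054 and 0.066). Their changes are therefore not shown to differ between the lines, although each gene passed in a single line. For Slc2a3, Pdk1, Ldha, Pgk1, Bnip3 and Adm the FDR adjusted P lay between 0.15 and 0.84. The lines differ in strain, colony and husbandry as well as in the mutated gene, and these cannot be told apart.

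Embryo by embryo, the median over the 10 genes of the log2 difference from the wild-type mean of the line was 0.19, 0.12 and 0.12 in Carm1 KO/KO replicates 1 to 3 and lay between -0.032 and 0.024 in their controls. The same median was 0.080, 0.26 and 0.15 in the Pax3 mutants and -0.031, -0.053 and 0.084 in their wild types. Each control is part of the mean it is compared with, which holds the control medians near 0. This median restates the values of the single genes and is not a further test. The Carm1 groups were apart on this median, and in the Pax3 line wild-type replicate 3 lay level with mutant replicate 1. That control had 8 of the 10 genes above the wild-type mean, with the largest differences in Adm (0.62) and Ankrd37 (0.35). Mutant replicate 2 of the Pax3 line was the highest embryo, with 9 of 10 genes above the mean. Over all genes the same median lay between -0.0052 and 0.0055 in every library.

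**Figure D3:**
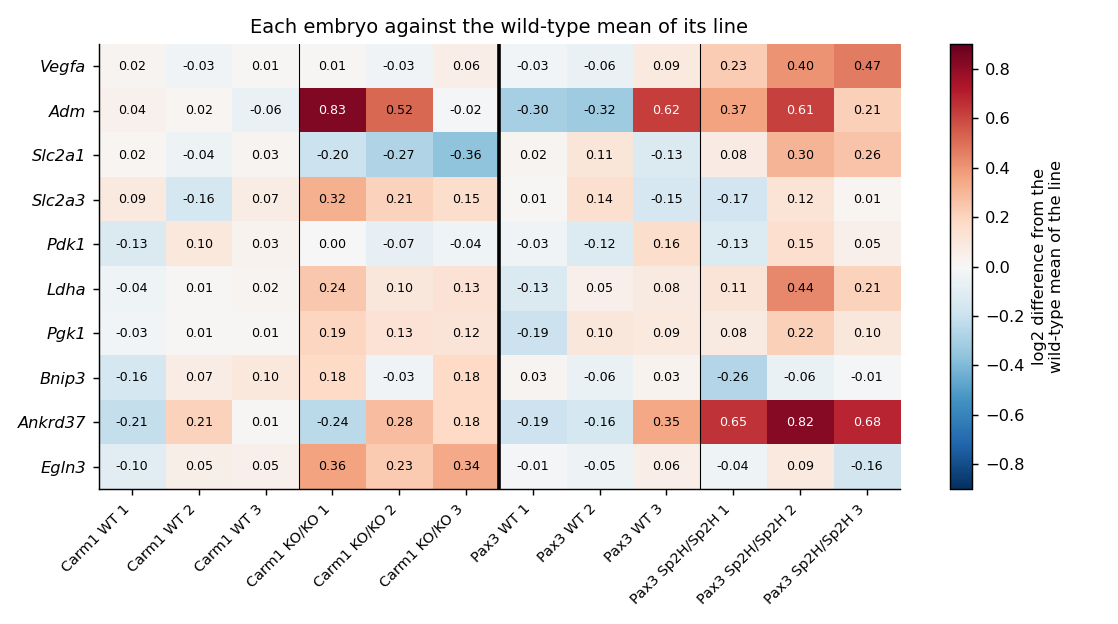
Heat map of the log2 difference of each embryo (columns) from the wild-type mean of its line for the 10 genes (rows), computed on CPM + 0.5, with red above and blue below that mean and the value printed in each cell. Ankrd37 reads 0.65, 0.82 and 0.68 in the Pax3 mutants, while Slc2a1 reads -0.20, -0.27 and -0.36 in the Carm1 mutants.

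Leaving out embryos changed how many genes passed. In the Carm1 line only Slc2a1 passed without mutant replicate 1, 2 genes (Slc2a1 and Pgk1) passed without wild-type replicate 2, and at most 5 passed in any such fit. Over all genes 7.64% passed without mutant replicate 1 and 8.42% without wild-type replicate 2, against 13.3% with every library. Only 2 genes of the Pax3 line (Vegfa and Ankrd37) passed without mutant replicate 2 or without wild-type replicate 1. The share over all genes was 17.6% and 17.3% in these Pax3 fits, against 24.5% with every library. Thus Slc2a1 in the Carm1 line and Vegfa and Ankrd37 in the Pax3 line were past the threshold in every fit, while each of the other calls was lost in at least 2 of the 16 alternatives.

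The change of a gene in the Pax3 line went with its length. Mutants and controls of that line also did not overlap in their share of Rn45s, and a link between length and Rn45s was not tested. With all genes split into 5 classes of equal size by exon length, the median log2 FC ran from 0.17 in the shortest class to -0.10 in the longest, whereas in the Carm1 line it ran from 0.0058 to -0.0068. Of the 10 genes, Adm, Ankrd37, Bnip3 and Pgk1 belong to the shortest class, Egln3, Ldha and Slc2a1 to the next, Vegfa to the middle, Slc2a3 to the next longer and Pdk1 to the longest. With offsets for length and GC content, 3 of the 10 genes passed in the Pax3 line, and Slc2a1 did not (0.16, edgeR adjusted P = 0.062). The share over all genes went from 24.5% to 17.3%. The median of all 10 genes was then 0.13 in the Pax3 line, against -0.0064 over all genes tested. With the same offsets 5 of the 10 passed in the Carm1 line, and the median of all 10 was 0.17, while that over all genes tested moved from 0.0014 to 0.030. The share of all genes that passed in that line rose from 13.3% to 20%.

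**Figure D4:**
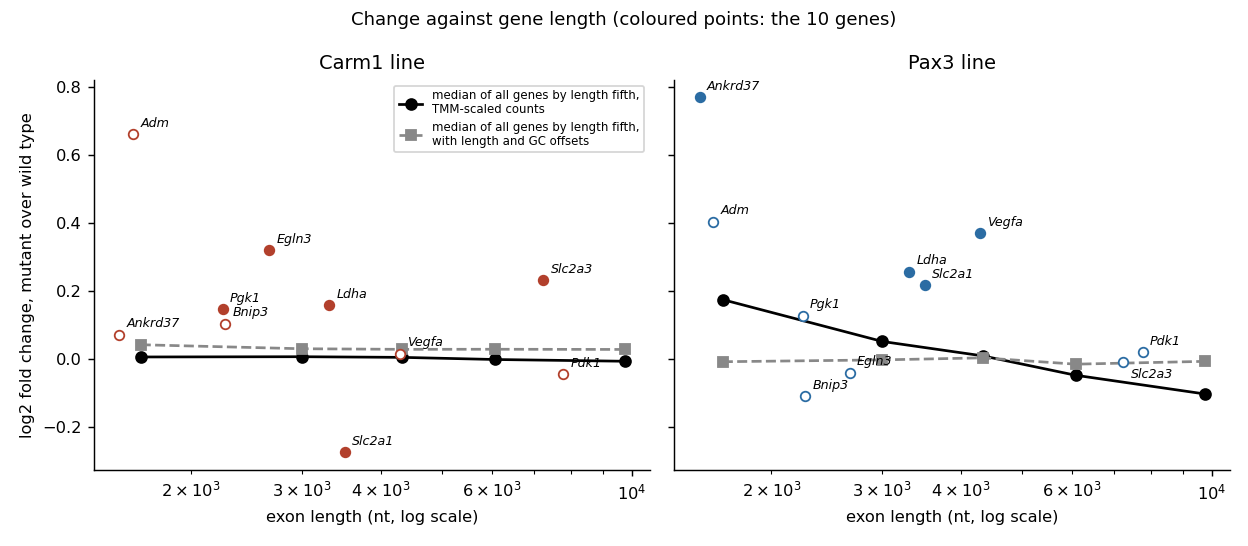
Log2 FC, mutant over wild type, against annotated exon length (log scale) in the Carm1 line (left) and the Pax3 line (right), with the 10 genes as coloured points (filled where FDR adjusted P is below 0.05) and the median of all genes in 5 classes of length as black circles, or grey squares with length and GC offsets. The black line falls from 0.17 to -0.10 in the Pax3 line and stays near 0 in the Carm1 line. In the Pax3 line Bnip3, Pgk1 and Egln3 lie below the median of their length class, and the other genes lie above it.

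Of 16 genes that sense oxygen or build the HIF complex, none passed in the Carm1 line by the edgeR test or by DESeq2 without offsets, and 2 had an unadjusted P below 0.05 by edgeR. Hif1a, the gene of the main alpha subunit, averaged 193 ± 6.09 CPM in the mutants there and 199.6 ± 6.11 CPM in the controls (SD, n = 3 each). In the Pax3 line 9 of the 16 passed, 5 higher and 4 lower, with a list median of -0.019. Hif1a fell from 220 ± 6.67 to 190 ± 9.54 CPM there (log2 FC -0.21, edgeR adjusted P = 0.0038), so the alpha subunit's transcript was lower in the embryos in which Vegfa and Ankrd37 were higher. HIF-1 alpha is controlled mainly as a protein, so its transcript does not measure its activity. Egln1, the main prolyl hydroxylase and itself a HIF target, rose by 0.28 on the log2 scale (edgeR adjusted P = 0.00065). Epas1, another alpha subunit, had estimates of -0.0033 and -0.0075 in the Carm1 and Pax3 lines. Hif3a, a further alpha subunit, had estimates of -0.14 and -0.17 and passed in neither line (edgeR adjusted P = 0.15 and 0.056). Hif3a was named after its values had been seen. Tceb2 (Elongin B, 0.40) and Egln2 (0.31) were higher and Cul2 (-0.22) and Ep300 (-0.20) lower in the Pax3 line. With offsets for length and GC content together 5 of the 16 passed in the Pax3 line, where the share over all genes went from 24.5% to 17.3%, and Hif1a (-0.11, edgeR adjusted P = 0.066), Cul2, Tceb2 and Egln2 did not. The same offsets gave 1 of the 16, higher, in the Carm1 line, where the share over all genes went from 13.3% to 20%.

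A further 28 HIF targets, of which 27 could be tested in each line, moved in both directions. Of these, 2 rose and 3 fell in the Carm1 line, with a median of -0.0013. Over all genes 13.3% passed in that line, 5.49% higher and 7.83% lower. Slc16a3, the transporter that exports lactate, rose by 0.34 on the log2 scale, and Hk2, the inducible hexokinase, by 0.21. Lox, which crosslinks collagen, fell by 0.61, the carbonic anhydrase gene Car12 by 0.52, and Tfrc, the transferrin receptor by which erythroid cells take up iron, by 0.38.

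In the Pax3 line 6 of the 27 targets passed, 4 higher and 2 lower, with a median of -0.015, a share not above the 24.5% of all genes that passed there. Ddit4 (REDD1), a stress-induced inhibitor of mTOR, averaged 117 ± 8.78 CPM in mutants against 55.2 ± 9.87 CPM in controls (SD, n = 3 each), and its log2 FC was 1.09 (edgeR adjusted P = 0.0013). The mitochondrial genes Higd1a and Fam162a rose by 0.85 and 0.61. Slc16a3 also rose in this line, by 0.60 (edgeR adjusted P = 0.0147), and its change was not shown to differ between the lines (-0.25, edgeR adjusted P = 0.35). Hmox1, a heme oxygenase, and Ero1l, an oxidase of the endoplasmic reticulum, fell by 0.31 and 0.28. Ddit4, Higd1a and Fam162a also passed the test of the difference between the lines (differences of -1.13, -0.79 and -0.65). With length and GC offsets 6 of the 27 passed in the Pax3 line, again 4 higher and 2 lower, beside 17.3% of all genes.

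Among 14 further genes of glycolysis and lactate transport that could be tested, 9 passed in the Carm1 line, 6 higher and 3 lower, with a median of 0.068. Pgam1 (0.29), Ldhb (0.23) and Pkm (0.22) had the largest rises. Aldoc (-0.56), Slc16a1 (-0.23) and Hk1 (-0.21) fell. The Pax3 line had 4 of 14 past the threshold, all higher, with a median of 0.12, and Eno2 (0.31), Pfkl (0.28) and Pgam1 (0.27) led. Over all genes 24.5% passed in that line, 14.0% higher and 10.5% lower. With length and GC offsets 10 of the 14 passed in the Carm1 line, 7 higher and 3 lower, where the share over all genes went from 13.3% to 20%. In the Pax3 line 3 passed with these offsets, 2 higher and 1 lower, and Eno2 and Pgam1 did not. The share over all genes was then 17.3%.

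**Figure D5:**
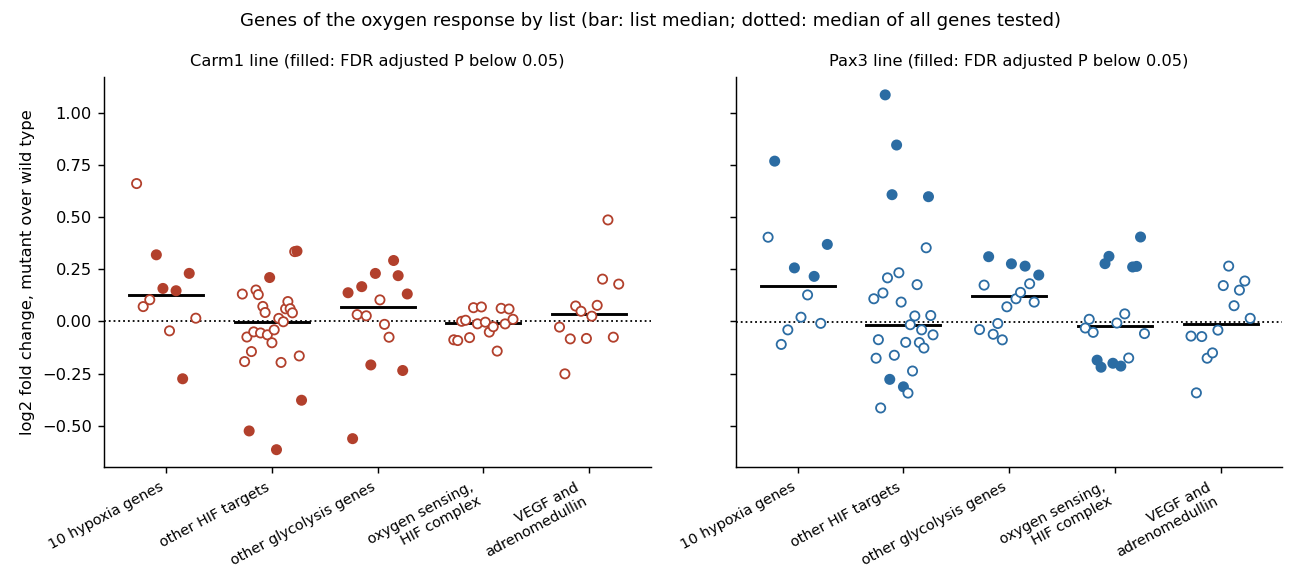
Log2 FC, mutant over wild type (vertical axis), of each tested gene in 5 lists of the oxygen response in the Carm1 line (left) and the Pax3 line (right), filled where FDR adjusted P is below 0.05, with a bar for the list median and a dotted line for the median of all genes. The 10 hypoxia genes have medians of 0.13 and 0.17, the other HIF targets lie around 0 in both lines, and the highest point of the Pax3 line is Ddit4 at 1.09.

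Of 12 tested genes for other VEGF ligands, VEGF receptors and the adrenomedullin receptor, none passed in either line by edgeR or DESeq2. By edgeR 13.3% of all genes passed in the Carm1 line and 24.5% in the Pax3 line. In each line 2 of the 12 had an unadjusted P below 0.05 by edgeR, a count with no share over all genes beside it. With length and GC offsets 1 of the 12 passed in the Carm1 line, higher, and none in the Pax3 line. The shares over all genes with these offsets were 20% and 17.3%. At an unadjusted P below 0.05 there were 4 and 1 of the 12. In the test of the difference between the lines Nrp1, a coreceptor of VEGF, passed (0.21, edgeR adjusted P = 0.039), with estimates of 0.049 and -0.15 in the Carm1 and Pax3 lines. The VEGF receptor gene Kdr had estimates of 0.074 and -0.18 in the Carm1 and Pax3 lines, with Flt1 at -0.083 and -0.072. Nrp1, Kdr and Flt1 were named after their values had been seen. Among 9 tested relatives of the glucose transporters and pyruvate dehydrogenase kinases, Slc2a2, the transporter of liver, fell by 1.07 in the Carm1 line, from 2.74 ± 0.334 to 1.30 ± 0.318 CPM (SD, n = 3 each). Pdk3 fell by 0.23 in the Pax3 line.

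Markers of several tissues passed the test, beside 13.3% of all genes in the Carm1 line and 24.5% in the Pax3 line. In the Carm1 line 7 of 9 erythroid markers were lower (median -0.57), as were 9 of 10 hepatocyte markers (-1.03), 7 of 9 skeletal muscle markers (-0.45) and 5 of 10 cardiac markers (-0.23), while all 8 neural progenitor markers were higher (0.35). The other 2 erythroid markers, both embryonic globins, did not pass: Hba-x averaged 1904 ± 194 CPM in mutants and 890 ± 264 CPM in controls (SD, n = 3 each; log2 FC 1.097, edgeR adjusted P = 0.077), and Hbb-y had an estimate of -0.048. A single erythroid marker passed as higher by DESeq2. Slc2a1 and Tfrc, which are abundant in erythroid cells, and Slc2a2 fell in those embryos, and the part of these cell types in their change was not tested. The summed erythroid level, which the embryonic globins dominate, ranged from 7108 to 8428 CPM in mutants and from 5258 to 9227 CPM in wild types. In the Pax3 line none of 9 erythroid markers passed by the edgeR test or by DESeq2, and none had an unadjusted P below 0.05 in these fits. There 6 of 9 skeletal muscle markers were lower and 1 higher (median -0.87), 5 of 10 cardiac markers were higher and 1 lower (0.33), and 5 of 8 neural progenitor markers were higher (0.20). Endothelial markers were higher in 3 of 8 cases in the Carm1 line and in 2 of 8 in the Pax3 line, with none lower. The share in the Pax3 line was close to that over all genes. With length and GC offsets the endothelial counts were 6 and 1, beside 20% and 17.3% of all genes. Of 8 neuron markers 3 were lower in each line and none higher (medians -0.18 and -0.16), while Slc2a3 rose in the Carm1 line, and their part in its level was not tested. Hepatocyte markers in the Pax3 line were higher in 2 of 10 cases and lower in 2. Trophoblast markers summed to at most 1.85 CPM in any library, and 2 of them were at 0 in all libraries of a line.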

How the data were processed

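The data are RNA-seq counts from 12 whole embryos at E12.5. Per the labels, the authors used STAR for alignment to mm10 and featureCounts for counting, and the deposited values are raw counts per gene, without normalization or pooling. Versions, strand setting and the handling of reads with several alignments are not given in the sources used here. Totals of 17183344 to 23518692 counts per library limit mainly Adm and Ankrd37. No source ties embryos to litters, so P values measure the spread between these embryos. No 2 libraries held the same values.

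Each line was tested apart with edgeR 4.0.16 (R 4.3.3), using TMM, filterByExpr, robust quasi-likelihood fits and Benjamini-Hochberg adjustment at 0.05. The difference between the lines was a contrast over all 12 libraries. Alternatives were DESeq2 1.42.0, RLE and upper-quartile factors, no filter, at least 10 counts in every library, 1 fit of all libraries, a replicate block, each library left out, a term for libraries with at least 100 Y-linked counts, and length and GC offsets (splines with 5 degrees of freedom). The 10 genes and the lists were chosen with earlier results of these data known. Besides the 10 genes, the text names the targeted genes, Hif1a, Epas1, Egln1, and up to 3 higher and 3 lower genes per list and line by size of change among those past the threshold with a mean of at least 1 CPM. GENCODE vM21 (GRCm38) gave lengths and positions and matched 21785 of 23420 symbols as written and 1278 by an older symbol.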

Additional observations from a re-analysis of the deposited data

Results flagged for a closer look

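Among the 10 genes, 2 changed differently in the Carm1 and Pax3 lines by the interaction test over all 12 libraries. That share is close to the 19.1% of all 16292 genes tested that passed. The log2 change of Vegfa in the Carm1 line minus that in the Pax3 line was -0.34 (edgeR adjusted P = 0.0019), with Vegfa higher in 3 of 3 Pax3 Sp2H/Sp2H embryos than in any control and inside the range of the controls, or close to it, in the Carm1 KO/KO embryos. For Slc2a1 the same difference was -0.48 (edgeR adjusted P = 0.000173), with 3 of 3 Carm1 KO/KO embryos below every control and 2 of 3 Pax3 Sp2H/Sp2H embryos above every control.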

How the results depend on the processing

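Of the alternatives, 1 fit of all 12 libraries left 2 of the 10 genes past the threshold in the Carm1 line (Slc2a1 and Egln3), and the replicate block left 3, since Ldha and Egln3 missed it narrowly (edgeR adjusted P = 0.054 and 0.053). In that line 10.3% of all genes passed in the fit of all libraries and 11.3% with the block. The block gave 4 genes in the Pax3 line and 3 in the difference, beside 26.6% and 19% of all genes. Among the lists it gave 6 of 14 glycolysis genes in the Carm1 line (3 higher, 3 lower) and 8 of 9 erythroid markers (1 higher), and in the Pax3 line 2 of 12 VEGF and adrenomedullin signalling genes (1 higher, 1 lower), 1 of 9 erythroid markers (lower) and 3 of 8 endothelial markers (1 lower). Deviations of libraries with the same number correlated at -0.042 to 0.00082 in the Carm1 line and at -0.092 to 0.23 in the Pax3 line. Libraries with different numbers correlated at -0.010 to 0.050 and at -0.32 to 0.24. With 3 embryos per group these values cannot decide whether the numbers pair the embryos. With length and GC offsets the median of the 10 genes in the Carm1 line was 0.17 (0.030 over all genes), and the balance of all calls turned from 41.2% higher to 59.3% higher. DESeq2 gave 4 genes in each line, beside 8.7% of all genes in the Carm1 line and 22.9% in the Pax3 line. Leaving out each library gave 1 to 5 genes in the Carm1 line with medians from 0.083 (without wild-type replicate 1) to 0.16, 2 to 4 in the Pax3 line with medians from 0.11 (without wild-type replicate 1) to 0.22, and 2 to 4 in the difference between the lines (4 without Pax3 wild-type replicate 3). In the same order, 7.64 to 14.3%, 15.4 to 25.8% and 14 to 20.5% of all genes passed in these fits. The causes were not tested.

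Signs turned only for estimates that did not pass. With offsets these were Epas1 in the Carm1 line (0.026) and Slc2a3 in the Pax3 line (0.060), and without a filter Slc2a3 (0.00074) and Epas1 (0.0021) in the Pax3 line. Leaving out libraries gave ranges across 0 in the Carm1 line for Vegfa (-0.0080 to 0.039), Pdk1 (-0.10 to 0.0089), Ankrd37 (-0.047 to 0.23) and Epas1 (-0.026 to 0.015). In the Pax3 line it did so for Slc2a3 (-0.081 to 0.070), Pdk1 (-0.043 to 0.11), Egln3 (-0.11 to 0.021) and Epas1 (-0.10 to 0.050). In the difference it did so for Adm (-0.34 to 0.51), Pdk1 (-0.14 to 0.010), Ldha (-0.16 to 0.0076) and Pgk1 (-0.018 to 0.12). In every edgeR fit, and not only in those with an arm of 2 libraries, the spread of a gene was estimated with information shared across genes. Depth limits Adm most, at 14 to 47 counts.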
